A study of Gallus gallus with 8 samples.

Results

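Collagens, laminins, elastic fibre proteins and the proteases that trim them make up the matrix genes described here. They were taken by spelling, from the gene names in the authors' deposited workbook: names starting with COL and a digit, LAMA, LAMB, LAMC, NID, FBLN, FBN, MMP, ADAMTS or LOX, and the genes ELN and FN1. On the array, 176 probe sets of 84 genes met that spelling. Each gene stands for the probe set with the highest mean among these, and it was kept where the log2 signal was above 4 on at least 4 of the 8 arrays. That left 35 of the 8351 named genes tested, and 49 matrix genes did not pass. Another 4 names also meet the spelling but are no matrix genes and were set apart. They are COL4A3BP, which codes for a ceramide transporter, and collectins written as COL and a number, among them COLEC12.

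The arrays compared sensory epithelia from the inner ear of chick embryos at day 20 to 21 of incubation. There were 4 arrays of the utricle, a balance organ, and 4 of the cochlea, the hearing organ, and neither tissue was treated. Each array carried RNA from 10 to 20 pooled epithelia, and dissection was meant to leave hair cells and supporting cells. Replicates are called biological in the labels, which give no strain or sex.

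A sensory epithelium of the ear sits on a basement membrane, a sheet in which a laminin polymer and a type IV collagen network are joined by nidogen. Below that sheet lies connective tissue with collagen fibrils, whose surfaces carry fibril-associated collagens, and with elastic fibres built from elastin on fibrillin microfibrils. Matrix metalloproteinases and ADAMTS proteases process or degrade these proteins, and tissue inhibitors of metalloproteinases (TIMPs) bind and block many of those enzymes.

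Over all probe sets, arrays of the same tissue correlated at 0.9929 to 0.9971 and arrays of different tissues at 0.9619 to 0.9695. Hair cell markers were present in both tissues: 4 of the 6 tested were higher in the utricle, and 1, MYO6, was higher in the cochlea. The utricle exceeded the cochlea 61.0-fold in CALB2, which codes for calretinin, a calcium-binding protein of hair cells. PCDH15, the only other hair cell marker on the array, was under 4 throughout. The summed linear signal of the 7 was 31576 to 35249 in the utricle and 2717 to 4015 in the cochlea. CALB2, at log2 14.66 to 14.74, made up most of the utricle sum, so the gap between these sums is mainly that of 1 gene. CDH23 did not pass. Supporting cell markers were divided evenly, with 3 of 8 higher in each tissue, to set beside the same shares of all genes. LFNG and SLC1A3 were among those higher in the utricle, and the tectorins TECTA and TECTB among those higher in the cochlea. Of 15 fibroblast and mesenchyme markers on the array, 11 stayed under 4 on every array, including LUM, POSTN and TWIST1, and 2 were tested. The summed linear signal of the 15 was 122 to 409 on the utricle arrays and 239 to 668 on the cochlea arrays. In RNA from whole epithelia, fewer cells of a type and less RNA per cell cannot be told apart, and this holds for each difference below.

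Of the 35 matrix genes tested, 18 had higher signal in the utricle and 10 had higher signal in the cochlea (limma, adjusted p under 0.05 over all 16223 probe sets tested), and 7 did not pass. The share called was 80.0%, beside 53.3% of all genes tested. In the utricle direction the background was 26.5% of genes, and in the cochlea direction it was 26.7%. Differences of at least 2-fold were called for 19 of the 35, or 54.3%, beside 21.1% of all genes. The arrays of the tissues did not overlap for 27 of the 35, or 77.1%, beside 51% of all genes. The median size of the log2 difference, without its sign, was 1.20 for the matrix genes and 0.40 for all genes. These counts describe the genes that passed the filter: COL15A1, ELN and FBLN5 passed through 1 tissue only and so had to differ.

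**Figure D1:**
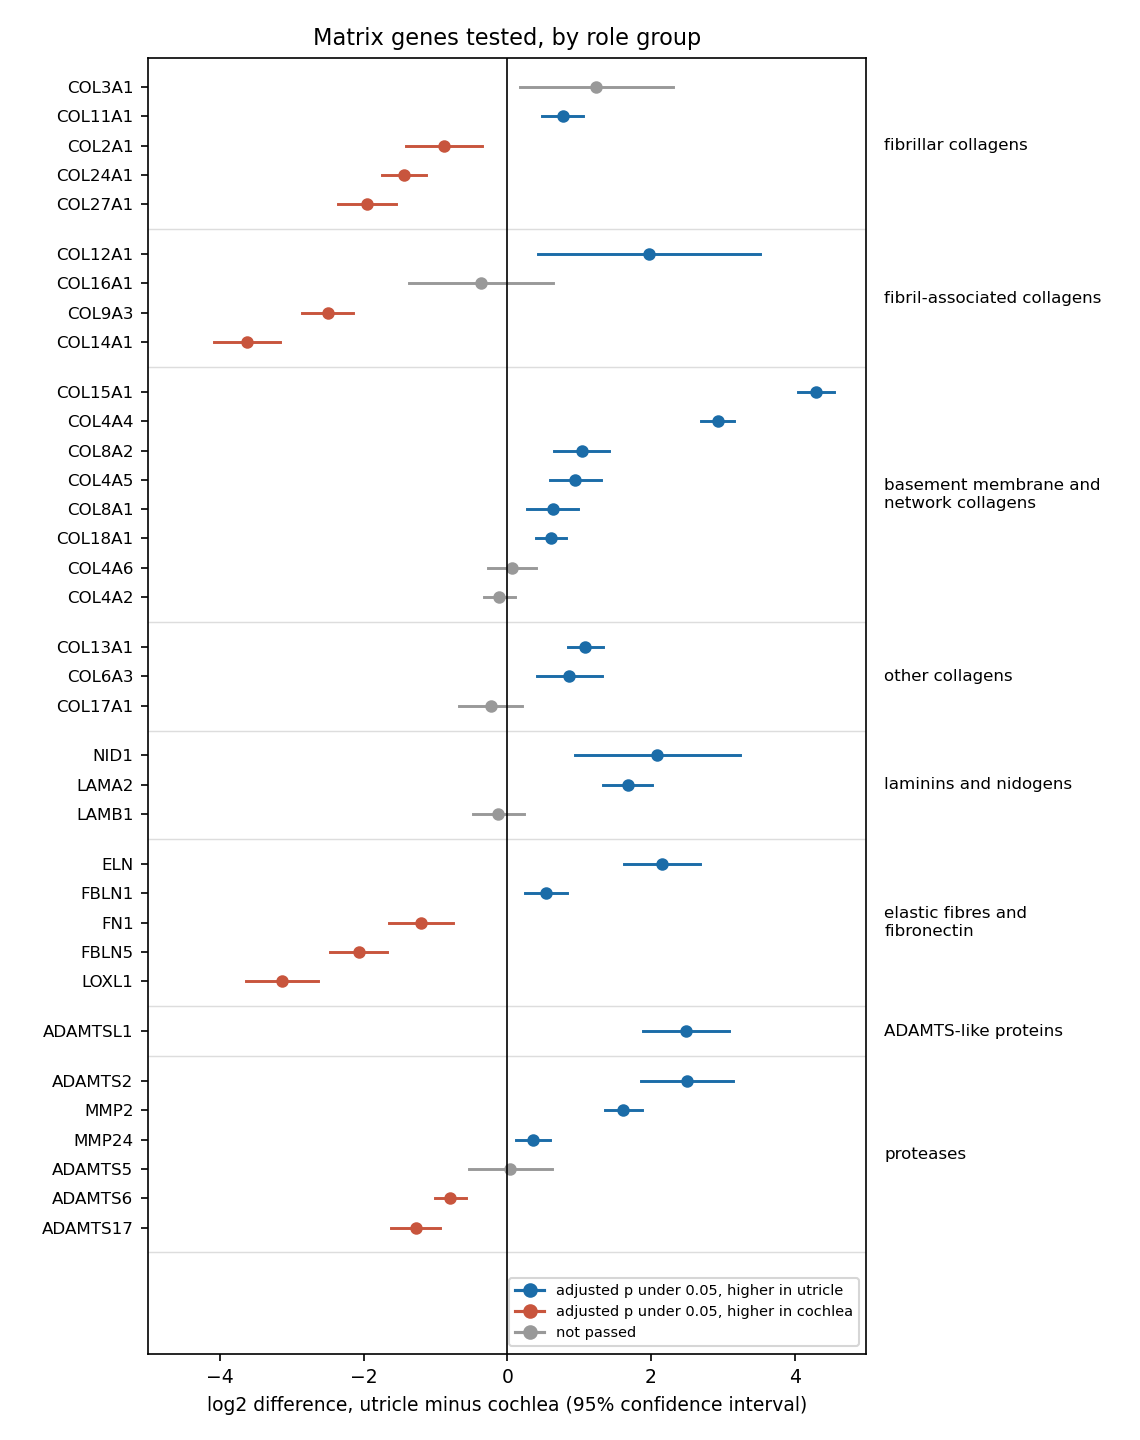
Log2 difference, utricle minus cochlea, of the 35 matrix genes tested, grouped by role. Points are differences of means over 4 arrays per tissue, lines are 95% confidence intervals from limma, and colour shows the direction of the 28 that passed, from COL15A1 at 4.29 to COL14A1 at -3.62.

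Among the fibrillar collagens, COL27A1, COL24A1 and COL2A1 were higher in the cochlea and COL11A1 was higher in the utricle, while COL3A1 did not pass. COL27A1 and COL24A1 code for minor fibrillar collagens that resemble those of invertebrates in their short triple helix. COL27A1 read 9.46, 9.53, 9.51 and 9.43 on the utricle arrays and 11.41, 11.12, 11.25 and 11.99 on the cochlea arrays (log2 signal, in array order 1 to 4 here and below). The groups were far apart, and the utricle arrays lay within a narrow band (SD 0.05, n = 4, against 0.38 in the cochlea). The fold was 3.88 (log2 difference -1.96, 95% confidence interval -2.36 to -1.56, limma adjusted p = 2.57e-05). COL24A1 read 11.09, 11.31, 10.77 and 11.29 in the utricle and 12.62, 12.39, 12.53 and 12.65 in the cochlea. Every cochlea array was above every utricle array, by 2.70-fold on average (log2 difference -1.43, interval -1.74 to -1.13, adjusted p = 3.42e-05). For both genes the dimmer probe set by name differed the same way, by -2.42 for COL27A1 and -1.60 for COL24A1. A COL27A1 probe set named only by description gave a smaller difference, -0.72 (1.65-fold, adjusted p = 0.00529).

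COL2A1 codes for type II collagen, the main fibril protein of cartilage, and COL11A1 for a chain of type XI collagen, which is built into type II fibrils. COL2A1 read 10.85, 11.37, 11.34 and 11.29 in the utricle and 11.58, 11.88, 12.26 and 12.65 in the cochlea. The groups did not overlap but came close to each other, and the difference was -0.88 (interval -1.41 to -0.36, adjusted p = 0.0117). COL11A1 went the other way, at 13.63, 13.64, 13.83 and 13.73 in the utricle and 12.95, 12.62, 13.07 and 13.12 in the cochlea. Its 3 probe sets with that name gave differences of 0.77, 0.77 and 0.75, each past the threshold (largest adjusted p = 0.000832). Thus the genes for type II collagen and for a chain of type XI differed in opposite directions.

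By the probe sets matched by name, the fibril-associated collagens held the widest difference in the cochlea direction. COL14A1 codes for type XIV collagen, which coats fibrils of type I collagen. It read 8.62, 9.31, 8.97 and 8.32 on the utricle arrays and 12.36, 12.30, 12.42 and 12.64 on the cochlea arrays. No utricle array came near the cochlea range, and the fold was 12.3 (log2 difference -3.62, interval -4.08 to -3.16, adjusted p = 1.44e-06). Another 2 probe sets, which the workbook links to COL14A1 only in its description, differed the same way, by -2.92 and -2.03. Both were brighter than the probe set by name, and the brightest, with means of 12.48 and 14.50, gave the smallest difference. The size of the COL14A1 difference therefore depended on the probe set, between 4.07-fold and 12.3-fold.

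COL9A3 codes for a chain of type IX collagen, which decorates type II fibrils. It read 11.15, 11.32, 11.55 and 11.40 in the utricle and 13.79, 13.50, 13.91 and 14.21 in the cochlea. The cochlea arrays were all higher, by 5.65-fold on average (log2 difference -2.50, interval -2.86 to -2.14, adjusted p = 2.88e-06), and the dimmer COL9A3 probe set differed by -3.26. COL9A1, for another chain, is named only by description in the workbook and so falls outside the spelling. COL9A2 met the spelling on a probe set that read 3.54 at most. A brighter COL9A2 probe set is linked by description and is used here. Both genes were looked up by description after the values were seen. COL9A1 read 13.65, 13.63, 13.95 and 13.79 in the utricle and 11.20, 10.91, 11.78 and 12.31 in the cochlea. It was thus higher in the utricle on every array, by 4.61-fold (log2 difference 2.21, interval 1.57 to 2.84, adjusted p = 0.0002). COL9A2 did not pass, with means of 11.40 ± 0.27 and 11.70 ± 0.32 (SD, n = 4 arrays per tissue) and an interval of -0.73 to 0.12 for the log2 difference. The genes for the chains of type IX collagen therefore gave 1 difference in each direction and 1 that did not pass.

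**Figure D2:**
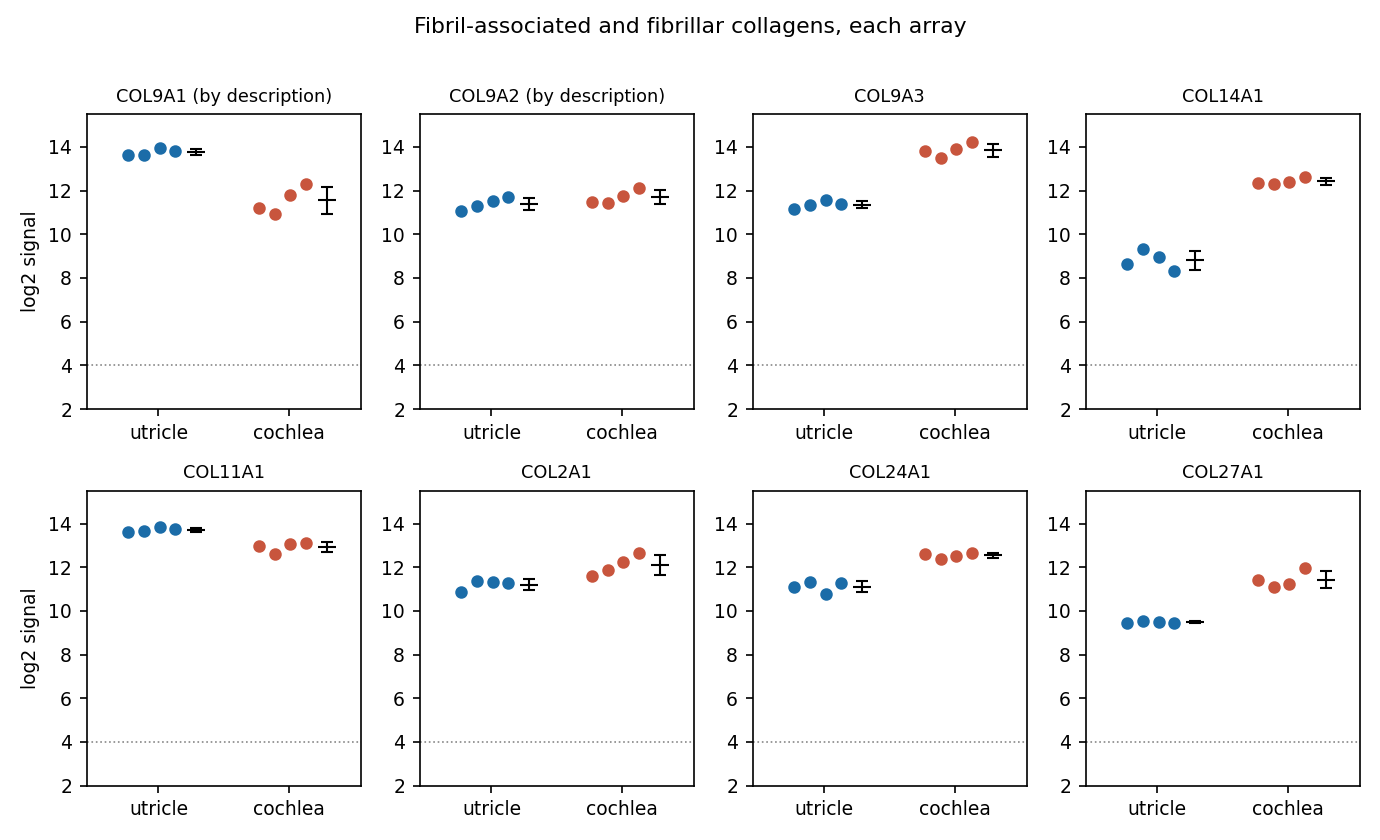
Log2 signal of fibril-associated and fibrillar collagen genes on each array, utricle in blue and cochlea in red, with mean and SD (n = 4) in black beside the points; the dotted line is the filter at 4. COL9A1 lay higher in the utricle and COL9A3 higher in the cochlea. COL14A1, on its probe set by name, showed the widest gap, from 9.31 at most in the utricle to 12.30 at least in the cochlea.

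COL12A1, for the fibril-associated collagen XII, differed in the utricle direction but with overlap. It read 4.94, 7.13, 6.97 and 5.64 on the utricle arrays and 2.45, 4.63, 4.55 and 5.16 on the cochlea arrays. Cochlea array 4 was above utricle array 1, and the log2 difference was 1.97 (interval 0.43 to 3.51, adjusted p = 0.0373). Leaving out a single array ended this call for 6 of the 8 arrays, all but utricle array 1 and cochlea array 4, and the smallest value was 1.39, without cochlea array 1. COL16A1, another fibril-associated collagen, crossed 4 on 6 arrays and ranged from 2.94 to 5.10, with no call.

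Calls of the basement membrane and network collagens went 1 way. Of 8 tested genes, 6 were higher in the utricle, none was called higher in the cochlea, and COL4A2 and COL4A6 did not pass. The share called was 75%, beside 53.3% of all genes, of which 26.5% were called higher in the utricle. Among the 6, COL15A1 passed the filter through the utricle only and so had to differ. COL15A1 codes for type XV collagen, found at the border of basement membranes and connective tissue. It read 7.54, 7.61, 7.67 and 7.90 in the utricle and 3.56, 3.22, 3.36 and 3.42 in the cochlea. All cochlea arrays were under 4, so the utricle exceeded the cochlea by at least 12.8-fold (log2 difference 4.29, adjusted p = 1.93e-08). The authors' deposited table has this probe set as present on 4 utricle and 3 cochlea arrays, so signal under 4 is not the same as an absent call. COL18A1, for the related type XVIII collagen from which endostatin is cut, was 1.52-fold higher in the utricle. Its arrays ran from 13.58 to 13.77 in the utricle and from 12.89 to 13.19 in the cochlea, without overlap.

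COL4A4 and COL4A5 code for type IV collagen chains that assemble together in mammalian basement membranes and whose loss in humans causes Alport syndrome, a kidney disease with hearing loss. COL4A4 read 10.97, 10.86, 11.18 and 11.11 in the utricle and 8.01, 8.02, 8.23 and 8.14 in the cochlea. The groups were tight and far apart, with a fold of 7.62 (log2 difference 2.93, interval 2.70 to 3.16, adjusted p = 8.77e-08). COL4A5 read 8.95, 9.01, 9.08 and 9.12 in the utricle and 7.91, 7.95, 7.92 and 8.58 in the cochlea, where array 4 stood above the others. The utricle exceeded the cochlea by 1.93-fold (adjusted p = 0.00104), and its dimmer probe set differed by 1.55. COL4A2 read 4.47 on 6 of the 8 arrays and so could show little difference. COL4A6 lay between 4.06 and 4.67 on all arrays. COL4A3, for a further type IV chain, did not pass the filter, with means of 2.97 in the utricle and 2.85 in the cochlea.

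COL8A1 and COL8A2 code for type VIII collagen, a short-chain collagen that forms hexagonal networks in the cornea. COL8A2 read 8.66, 8.24, 8.86 and 8.44 in the utricle and 7.63, 7.15, 7.54 and 7.73 in the cochlea, a 2.05-fold difference without overlap (adjusted p = 0.000952). COL8A1 exceeded its cochlea level by 1.55-fold in the utricle on its brightest probe set (adjusted p = 0.00847), but another 2 probe sets did not pass. Of these, 1 gave a difference of 0.28, and the dimmest read 5.66 on all 8 arrays and so could show no difference. Among the other collagens, COL13A1, a transmembrane collagen, read 5.69, 5.42, 5.42 and 5.37 in the utricle and 4.25, 4.58, 4.33 and 4.40 in the cochlea. That difference of 1.09 was well beyond the spread (SD 0.14 in each tissue, adjusted p = 4.83e-05), although the cochlea arrays lay near the filter at 4. COL6A3, a chain of the beaded filament collagen VI, was 1.82-fold higher in the utricle, with 6.56, 6.77, 7.02 and 6.32 against 6.02, 5.43, 5.64 and 6.13. COL17A1, a collagen of hemidesmosomes, overlapped between tissues, and its log2 difference had an interval of -0.67 to 0.21.

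Laminin genes were sparse among those tested. LAMA2 codes for the alpha chain of the laminin of muscle and peripheral nerve basement membranes. It read 11.01, 11.56, 11.35 and 11.27 in the utricle and 9.80, 9.83, 9.52 and 9.34 in the cochlea. The groups were well apart, with a fold of 3.19 (log2 difference 1.67, interval 1.33 to 2.02, adjusted p = 2.77e-05). LAMB1, a widely used beta chain, overlapped, and its log2 difference of -0.12 had an interval of -0.48 to 0.23. LAMA5, an alpha chain of many epithelial basement membranes, did not pass the filter by name, with means of 2.23 in the utricle and 2.51 in the cochlea. A brighter LAMA5 probe set is linked only by description. It read 8.96, 9.02, 8.78 and 8.62 in the utricle and 10.03, 9.93, 10.00 and 10.22 in the cochlea, the opposite direction to LAMA2 (log2 difference -1.21, adjusted p = 3.61e-05). LAMB2, also found by description, did not pass, with 7.81 ± 0.37 against 7.69 ± 0.40 (mean ± SD, n = 4).

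NID1 codes for nidogen, the link between laminin and type IV collagen. It read 8.43, 10.16, 9.83 and 8.85 in the utricle and 6.11, 7.09, 7.57 and 8.16 in the cochlea. The groups did not overlap, although the lowest utricle array was only slightly above the highest cochlea array, and both spreads were wide (SD 0.81 and 0.87). The log2 difference was 2.09 (interval 0.94 to 3.24, adjusted p = 0.00801).

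**Figure D3:**
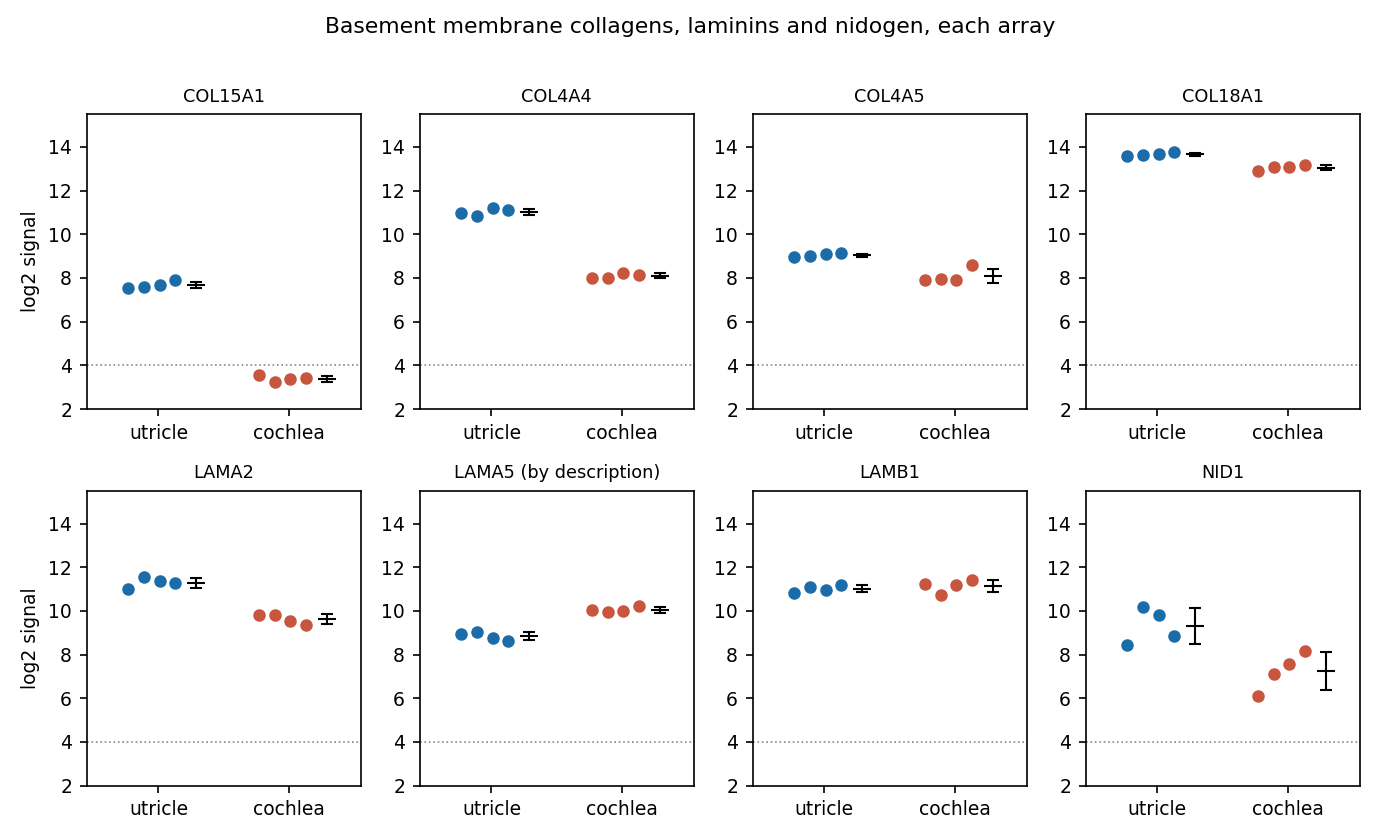
Log2 signal of basement membrane collagens, laminins and nidogen on each array, utricle in blue and cochlea in red, with mean and SD (n = 4) in black and the filter at 4 as a dotted line. COL15A1 was under 4 on all cochlea arrays, LAMA2 was higher in the utricle and LAMA5 higher in the cochlea, and NID1 spread from 6.11 to 10.16.

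Elastic fibre genes divided between the tissues. ELN codes for elastin, the elastic core protein. It read 4.55, 4.85, 5.59 and 5.21 in the utricle and 3.07, 3.17, 2.53 and 2.82 in the cochlea. All cochlea arrays were under 4, so the fold was at least 2.07 (adjusted p = 8.08e-05). The authors' deposited table gives 4.96-fold for this probe set, a value taken with the cochlea arrays at their low signal, and lists the probe set as present on 2 of the 4 cochlea arrays. FBN2, for a fibrillin of developing microfibrils, is named by description only. Its brighter probe set read 4.50, 4.81, 4.42 and 5.46 in the utricle and 2.52 on each cochlea array, so the utricle was higher by at least 1.74-fold. Both ELN and FBN2 passed the filter through the utricle only and so had to differ.

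LOXL1 and FBLN5 went the other way. LOXL1 codes for a lysyl oxidase that cross-links elastin, and FBLN5 for fibulin-5, which is needed for elastic fibre assembly in mice. LOXL1 read 8.01, 8.66, 8.94 and 8.02 in the utricle and 11.62, 11.36, 11.74 and 11.46 in the cochlea. The cochlea was higher on every array, by 8.82-fold (log2 difference -3.14, interval -3.64 to -2.64, adjusted p = 5.7e-06). FBLN5 read 2.98, 3.51, 2.88 and 3.09 in the utricle, all under 4, and 5.50, 5.23, 5.12 and 4.90 in the cochlea, at least 2.28-fold higher (adjusted p = 1.56e-05). FBLN5 passed the filter through the cochlea only, as ELN did through the utricle only, so both had to differ. The authors' deposited table lists the FBLN5 probe set as present on 2 of the 4 utricle arrays.

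FBLN1, for a fibulin found with fibronectin and elastic fibres, was 1.45-fold higher in the utricle, with 9.02, 9.22, 9.34 and 9.42 against 8.69, 8.60, 8.55 and 9.0. Its lowest utricle array was just above its highest cochlea array, and its dimmer probe set did not pass, at 0.15. FBLN7, a further fibulin, had a 1.74-fold higher signal in the cochlea on a probe set linked by description (adjusted p = 0.0126). Its probe set by name read 2.28 at most. FN1 codes for fibronectin, which cells use to assemble other matrix. It read 6.14, 7.12, 6.78 and 6.89 in the utricle and 7.96, 8.05, 7.73 and 7.98 in the cochlea, without overlap. The fold was 2.30 (log2 difference -1.20, interval -1.65 to -0.75, adjusted p = 0.000979), and its other probe set differed by -1.69.

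The proteases included 3 higher in the utricle, 2 higher in the cochlea and 1 that did not pass, so 83.3% were called, beside 53.3% of all genes. MMP2, gelatinase A, read 14.04, 13.93, 13.98 and 13.88 in the utricle and 12.62, 12.17, 12.37 and 12.22 in the cochlea. The utricle arrays agreed closely (SD 0.07), and the fold was 3.06 (log2 difference 1.61, interval 1.35 to 1.87, adjusted p = 5.65e-06). ADAMTS2, which removes the amino-terminal propeptide from fibrillar procollagens, read 7.43, 6.89, 6.46 and 7.18 in the utricle and 5.12, 3.97, 4.60 and 4.26 in the cochlea. With 1 cochlea array under 4, the fold was at least 5.64 (adjusted p = 9.94e-05). MMP24, a membrane-type metalloproteinase of neural tissue, had a 1.28-fold higher utricle signal (adjusted p = 0.0192), and its dimmer probe set did not pass, at 0.14. Without utricle array 4 the brighter one did not pass either, at 0.32 (adjusted p = 0.0507). Fold differences for this enzyme were thus small in either probe set.

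ADAMTS17 and ADAMTS6, secreted proteases tied to fibrillin microfibrils in mammals, were higher in the cochlea. ADAMTS17 read 8.40, 8.48, 8.46 and 8.78 in the utricle and 9.80, 9.75, 9.52 and 10.16 in the cochlea, a 2.42-fold difference without overlap (adjusted p = 0.00013). ADAMTS6 read 9.41, 9.07, 9.15 and 9.12 in the utricle and 10.03, 10.01, 9.90 and 9.97 in the cochlea, a 1.73-fold difference (adjusted p = 0.000153). Its dimmer probe set did not pass, at -0.49 (adjusted p = 0.0673). ADAMTS5, an aggrecan-cleaving protease, passed 4 on 5 arrays and overlapped fully between tissues. ADAMTSL1, punctin, is built like an ADAMTS protein but lacks the protease domain. It read 9.98, 10.09, 10.25 and 9.50 in the utricle and 7.10, 6.97, 7.79 and 8.0 in the cochlea, 5.62-fold higher in the utricle (interval of the log2 difference 1.89 to 3.09, adjusted p = 6.77e-05).

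**Figure D4:**
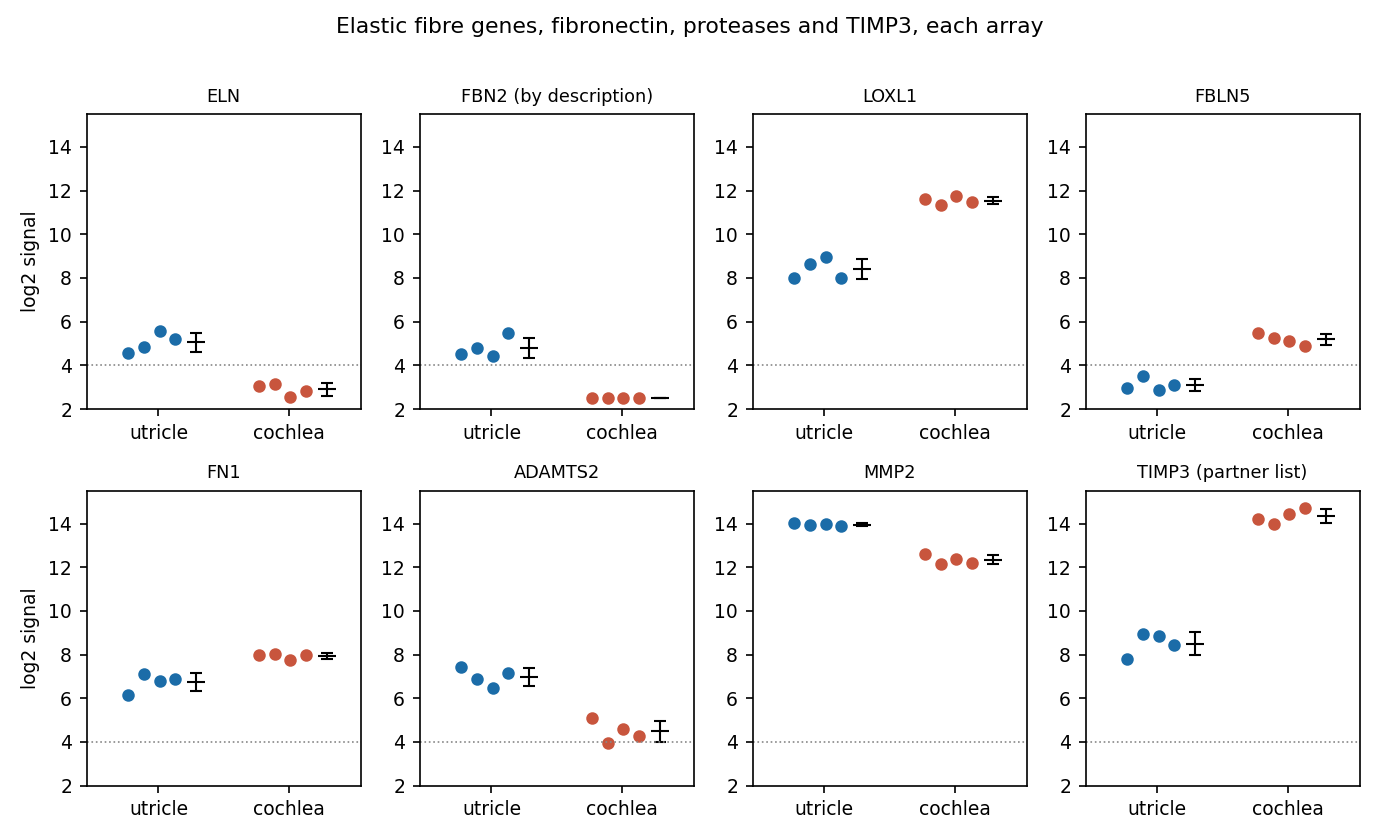
Log2 signal of elastic fibre genes, fibronectin, proteases and the inhibitor TIMP3 on each array, utricle in blue and cochlea in red, with mean and SD (n = 4) in black and the filter at 4 as a dotted line. ELN was above 4 in the utricle only and FBLN5 in the cochlea only, MMP2 was higher in the utricle, and TIMP3 was 56.6-fold higher in the cochlea.

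Genes that work with these proteins were compared from lists of partners. The share called over all genes, to set beside each count, was 53.3%. Of 10 protease inhibitors listed, 5 were tested, of which 2 were higher in each tissue and RECK did not pass. TIMP3, the inhibitor that stays bound to matrix, read 7.80, 8.95, 8.85 and 8.44 in the utricle and 14.22, 13.96, 14.44 and 14.71 in the cochlea, a 56.6-fold difference (adjusted p = 4.39e-07). A2M, the broad inhibitor alpha-2-macroglobulin, was 3.75-fold higher in the cochlea too. TIMP2, which also takes part in the activation of the MMP2 proenzyme, was 2.28-fold higher in the utricle, the same direction as MMP2 itself, and SERPINE2 was 1.28-fold higher there. The median log2 difference of the 5 was 0.36, beside 0.00 over all genes.

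Of 14 tested genes for collagen biosynthesis and processing, 6 had higher signal in the utricle and 3 did in the cochlea, with 5 not past the threshold (median log2 difference 0.41). CRTAP, part of a prolyl hydroxylase complex, was 1.92-fold higher in the utricle, and P4HB, the shared subunit of the prolyl 4-hydroxylases, was 1.41-fold higher. SEC24D, a coat protein for export of procollagen, and PLOD2, a lysyl hydroxylase, exceeded their utricle signal by 1.69-fold and 1.32-fold in the cochlea. SERPINH1, the collagen chaperone, did not pass, and array 2 of each tissue stood above the rest of its tissue, at 13.30 and 12.85.

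Of 3 tested microfibril partners, LTBP1 and VTN were higher in the utricle and MFAP3 did not pass. LTBP1, which holds latent TGF-beta on microfibrils, read 11.89, 11.79, 11.80 and 11.98 in the utricle and 8.61, 8.93, 9.17 and 9.17 in the cochlea, a 7.43-fold difference (adjusted p = 5.14e-07). Among 19 tested basement membrane partners and matrix receptors, 8 had higher signal in the utricle and 6 had higher signal in the cochlea (median log2 difference 0.15). The shares over all genes were 26.5% and 26.7%. SMOC2, a calcium-binding matrix protein, was 3.95-fold higher in the utricle, and FRAS1, an anchor of epithelia to the basement membrane, was higher in the cochlea, by at least 9.94-fold. FRAS1 passed the filter through the cochlea only, and ITGB4, also among those called, through the utricle only, so both had to differ. The alpha chains of the collagen-binding integrins divided: ITGA1 was 5.61-fold higher in the cochlea, ITGA2 was 3.55-fold higher in the utricle, and ITGA11 did not pass, at -0.04 (adjusted p = 0.671).

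Some matrix genes varied among arrays of a tissue more than most. COL12A1, COL3A1 and NID1 had the widest spreads of the 35, with a larger SD of 1.20, 0.93 and 0.87, beside a median of 0.29 for the matrix genes and 0.22 for all genes. COL3A1, a chain gene of type III collagen in connective tissue, read 8.36, 9.29, 9.09 and 8.05 in the utricle and 6.43, 7.23, 7.51 and 8.67 in the cochlea. These groups overlapped, and the difference of 1.24 did not pass (interval 0.18 to 2.30, adjusted p = 0.0525). Without cochlea array 4 it passed at 1.64 (adjusted p = 0.00844), and without utricle array 4 at 1.45 (adjusted p = 0.0442). COL1A2, for a chain of type I collagen and named by description only, read 7.71, 9.01, 9.55 and 8.69 in the utricle and 4.54, 7.37, 7.98 and 9.69 in the cochlea, again with no call. In all 4 genes cochlea array 1 was the lowest of its tissue, cochlea array 4 the highest, and utricle arrays 2 and 3 the highest of theirs. COL16A1, the next widest of the 35 with a larger SD of 0.78, had utricle arrays 3 and 4 highest instead.

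Decorin, DCN, a fibroblast marker, read 5.33, 8.32, 8.09 and 5.61 in the utricle and 3.48, 6.37, 8.0 and 6.91 in the cochlea. It was thus high on utricle arrays 2 and 3 and lowest on cochlea array 1, as were COL12A1, COL3A1, COL1A2 and NID1. Unlike them, it was highest in the cochlea on array 3 and not on array 4. The other tested fibroblast marker, ASPN, was 2.22 on every utricle array and 6.17 to 8.34 in the cochlea. It differed in the direction of COL14A1, by at least 12.4-fold, but it passed the filter through the cochlea only and so had to differ. CALB1, a calcium buffer gene that read 15.33 to 15.42 in the cochlea, was also higher on utricle arrays 2 and 3, at 7.47 and 6.89, than on arrays 1 and 4, at 2.49 and 2.50. Over the 35 matrix genes, utricle arrays 2 and 3 were the highest pair for 12, or 34.3%, beside 14.8% of all genes. Cochlea array 1 was the lowest of its tissue for 10, or 28.6%, a share near the 29.6% of all genes. Both held for 5 of the 35, or 14.3%, beside 7.2% of all genes. They were COL12A1, COL3A1, NID1, ADAMTS5 and COL2A1, of which COL2A1 was higher in the cochlea. Without utricle arrays 2 and 3, which leaves 2 of the utricle, 12 matrix genes had a call for the utricle and 10 for the cochlea. The calls lost were those of COL12A1, NID1, COL6A3, COL8A1, FBLN1 and MMP24. The arrays left out were picked from these same values, and fewer arrays also give less precision. The lost calls therefore cannot tell what sets those arrays apart. The part of other cells in these values was not tested.

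**Figure D5:**
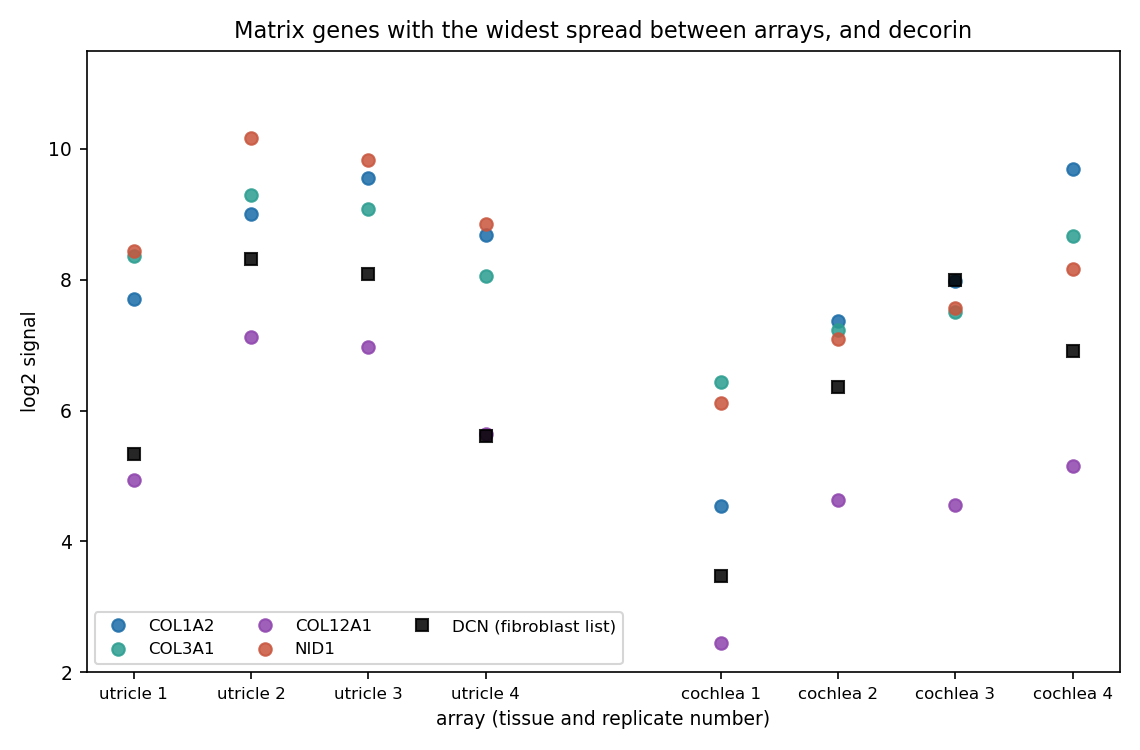
Log2 signal on each of the 8 arrays for COL12A1, COL3A1, NID1 and COL1A2 (coloured circles) and for the fibroblast marker decorin (black squares). Utricle arrays 2 and 3 were the highest of their tissue for each gene shown, and cochlea array 1 was the lowest of its tissue, at 3.48 for decorin.

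Markers of cartilage and bone also differed. Of 14 on the array, 7 were tested, 1 had higher signal in the utricle and 4 had it in the cochlea, beside 26.5% and 26.7% of all genes. The summed linear signal of the 14 was 1969 to 3388 in the utricle and 8894 to 13325 in the cochlea. LECT1, an older symbol of chondromodulin, was 37.0-fold higher in the cochlea and HAPLN1, the link protein of cartilage, 19.9-fold, in the direction of COL2A1, COL9A3 and COL27A1. LECT1 and HAPLN1 together made up most of the cochlea sum, and SOX9 made up most of the utricle sum. ACAN, for the cartilage proteoglycan aggrecan, was higher in the utricle, by at least 5.39-fold, in the direction of COL11A1 and COL9A1. But ACAN passed the filter through the utricle only and so had to differ. MATN1, SNORC and RUNX2 were under 4 on all arrays, and SOX9 did not pass. The part of cartilage cells in the collagen differences was not tested.

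Endothelial and smooth muscle markers gave mixed values. Of 14 endothelial markers on the array, 9 were under 4 throughout, including CDH5, KDR and VWF. The 3 tested were all called, beside 53.3% of all genes. PECAM1 was 1.34-fold higher in the utricle, and CLDN5, at least 8.86-fold, and EGFL7 were higher in the cochlea. For PECAM1 and EGFL7 the arrays of the tissues overlapped. The summed endothelial signal overlapped, at 1850 to 2762 in the utricle and 2002 to 2491 in the cochlea. PECAM1, at log2 10.70 to 11.34 in the utricle and 10.54 to 10.70 in the cochlea, made up most of both sums. The overlap of the sums is therefore mainly that of 1 gene. Of 7 smooth muscle and pericyte markers, 3 were tested, to set beside the same share of all genes. ABCC9 was higher in the utricle by at least 5.51-fold, MYLK was 2.06-fold higher in the cochlea with overlap, and TAGLN did not pass. ABCC9 passed the filter through the utricle only and so had to differ. The summed signal of the 7 was 178 to 245 in the utricle and 133 to 200 in the cochlea.

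Of the 49 matrix genes that did not pass the filter, 45 were at or under 4 on all arrays, among them COL4A1, COL7A1, LAMA1, LOX and MMP9. Just outside were LAMA3 and COL5A2, each above 4 on 3 arrays, with means of 4.29 and 4.50 in the utricle and 3.09 and 2.90 in the cochlea. Just inside were COL15A1, ELN and FBLN5, each above 4 on 4 arrays. A low signal for a probe set limits what can be said of its gene: COL9A2, COL5A1 and LAMA5 failed by name but were well above 4 on probe sets that carry the gene only in the description. COL5A1 then read 13.50 ± 0.03 in the utricle and 13.53 ± 0.36 in the cochlea (mean ± SD, n = 4), with an interval of -0.40 to 0.35 for the log2 difference. The 9 genes found in this way gave 2 calls for the utricle and 2 for the cochlea, and the other 5 did not pass, so 44.4% were called, beside 53.3% of all genes. FBN2, among the calls for the utricle, passed the filter through that tissue only and so had to differ.

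The authors' own list of detected genes leaves out 4 of the 35: LAMA2, FN1, ADAMTS17 and COL4A2. The authors' deposited table also gives present calls averaged over all probe sets of a gene, by which LAMA2 has 1.6 utricle and 0.8 cochlea calls per probe set although its brightest probe set read above 9 on all 8 arrays. For the 31 on that list, the authors' deposited table calls 23 by their SAM test. The SAM threshold and the share of all detected genes that SAM calls are not given here, so this count has no background beside it. Both tests used the same 8 arrays, so shared calls are no separate support. Of the 23, 22 were called in the same direction by limma and COL3A1 was called by SAM alone. COL8A1, FBLN1 and MMP24 were called by limma alone.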

How the data were processed

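Affymetrix chicken arrays measured 4 utricle and 4 cochlea samples, grouped by their labels. The authors deposited log2 signal made with GCRMA, per the submitters' processing notes; its version is not given in the sources used here. GCRMA includes quantile normalization, so values are relative between arrays. From the deposited workbook came the authors' SAM fold (a ratio) and present calls, an other kind of value; 136 columns of per-array values were not used. The 96 control probe sets were left out of 38535.

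Tissues were compared with limma 3.58.1 (R 4.3.3, lmFit and eBayes, two-sided, utricle minus cochlea) over 16223 probe sets above 4 on at least 4 arrays, with Benjamini-Hochberg adjustment over all of them. The fit was also run on simulated data with planted differences and noise drawn independently for each array. Its outcome is not given here and is not used as support. Where a dimmer array was under 4, its value was raised to 4 and the fold is a lower bound; this bound was set after the data were seen. Levels of different genes were not tested against each other. The summed signals of marker lists add linear values across genes, so the brightest probe sets weigh most in them. On arrays, the number of arrays limits the precision. Tables and figures used Python 3.11.15, pandas 2.3.3 and matplotlib 3.10.9.

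The members and lists were chosen with earlier results of these data known. Any of the 35 genes may be named; array values are given for the 8 largest called differences per direction (no overlap, brighter mean at least 6), up to 2 genes per role group and direction by adjusted p, and COL9A3, COL14A1, ELN and FN1. From partner and marker lists up to 2 per direction and TIMP3 are named. Other genes named, such as DCN, CALB1, RECK, SERPINH1 and those found by description, were chosen after their values were seen. Gene names are those of the array's annotation and can be old.

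The labels share replicate numbers 1 to 4 between tissues. Deviations from the tissue means correlated at 0.552, 0.480, 0.404 and 0.144 for equal numbers, each above 0.1, which met the rule for pairing by number, although cochlea array 4 correlated more with utricle array 3, at 0.304. The hint of pairing rests on the values, as no label states what a number means. All printed intervals and p-values come from the fit without pairing, and the paired fit was an alternative. Alternatives were no filter, a filter at 6, the authors' detected probe sets, a further normalization, equal medians, low values raised to 4, trend and robust eBayes, array weights, other probe set choices, the replicate block, the array-name prefix and leaving out arrays.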

Additional observations from a re-analysis of the deposited data

Results flagged for a closer look

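In each tissue, the array farthest from the rest was compared with the range of the 4 arrays by Dixon's test, for the 35 matrix genes and the 9 found by description, 88 groups in all. A gap past the 95% critical value was met 9 times; chance gives about 1 in 20 groups. Utricle array 1 stood apart for ADAMTS5 at 3.14 (low), COL13A1 at 5.69 (high) and COL2A1 at 10.85 (low). Utricle array 2 stood apart for FBLN7 at 7.13 (low) and MMP16 at 8.47 (high), utricle array 3 for COL4A6 at 4.67 (high), and utricle array 4 for COL4A2 at 4.29 (low). In the cochlea, array 2 stood apart for COL4A2 at 4.73 (high) and array 4 for COL4A5 at 8.58 (high). For COL4A2 the other arrays all read 4.47, so any other value stands apart. The COL13A1, COL2A1 and COL4A5 calls held without the array in question.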

How the results depend on the processing

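The count of matrix genes higher in the utricle, 18 at first, ran from 12 to 19 over the alternatives, and the count in the cochlea, 10 at first, from 8 to 10, where some alternatives test fewer of the 35; adding the 9 genes named by description, after the data were seen, gave 20 and 12 of 44. Leaving out single arrays gave 17 to 19 and 10. With the replicate block, which pairs arrays of equal number, the counts were again 18 and 10, and the pairing changed no call of the 35. The array-name prefix as a block gave 19 and 10, and the arrays of the larger prefix alone gave 18 and 10. Of 735 single-gene values, 696 kept direction and call. The 10 that turned direction belonged to ADAMTS5 and COL4A6, both dim and not called. For ADAMTS5 they were -0.031 with quantile normalization, -0.0051 with equal medians and -0.26 without utricle arrays 2 and 3, and leaving out single arrays gave -0.083 to 0.30. For COL4A6 they were -0.0072 and -0.037 with the first and the third of these settings, and leaving out single arrays gave -0.067 to 0.14. COL12A1 lost its call in 9 of its 21 alternatives (1.00 to 2.38), and NID1, COL2A1 and COL6A3 in 1 or 2 each. COL3A1 gained a call in 7 of 22, with adjusted p from 0.00844 to 0.328. The cause was not tested. COL8A1, FBLN1 and MMP24 lost theirs with the dimmest probe set, and ADAMTS6 did too. For COL8A1 that probe set read the same on all 8 arrays, so this loss was fixed in advance. Signals near the filter at 4 limit COL4A2, COL4A6, COL16A1, ADAMTS5, ELN and FBLN5. COL12A1, COL13A1, COL15A1 and ADAMTS2 also read near or under 4 on cochlea arrays, which limits the size of their differences.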
